A study of Mus musculus with 12 samples.

Results

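Major urinary protein (Mup) genes were examined in whole liver RNA from 12 female mice. The members were Mup1, Mup3, Mup7, Mup9, Mup16, Mup18, Mup19, Mup20, Mup21 and Mup22, taken by name from both deposited tables, which made 10 of 41743 gene rows. The family was chosen by its TPM in these same livers, in the comparisons of model with WT, so the differences between each model and its control are given below as values, with no test. All 10 reached 1 TPM (a transcript level corrected for length, which sums to 1000000 in each library) in at least 3 livers of each comparison, and in every WT liver, so all passed the filter on low levels through the group where all but Mup20 are high.

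The livers came from mice 3 to 4 months old in 4 groups of 3. YAP1 KO mice (LM74, LM189 and LM191) carried floxed Yap1 and a Foxa3-Cre transgene on a C57BL/6 background and were set against WT littermates of that strain (LM75, LM192 and LM193), written WT (C57BL/6). YKTH mice (LM225, LM250 and LM251) had Yap1 deleted from a separate floxed line of FVB origin and had also lost 1 copy of Wwtr1, which encodes TAZ, on a mixed C57BL/6 and FVB background, and their WT littermates (LM226, LM227 and LM230) are written WT (mixed). The Foxa3 promoter is active in foregut endoderm, so the deletion is directed at hepatocytes and cholangiocytes and not at the mesenchymal, endothelial and blood-derived cells of the liver. YAP1 KO mice also carried a Cre-dependent EYFP reporter at the ROSA locus. The paper reports both models as cholestatic, with injured livers that lack intrahepatic bile ducts. Gene loss and cholestasis thus cannot be told apart here. Yap1 was between 28.2 and 30.5 TPM in WT (C57BL/6) and between 1.67 and 3.72 TPM in YAP1 KO livers. It was between 31.0 and 33.2 TPM in WT (mixed) and between 8.63 and 11.5 TPM in YKTH livers. Wwtr1 was not lower in YKTH than in WT livers, and ranged from 11.5 to 14.1 TPM in YKTH, from 13.3 to 16.7 TPM in YAP1 KO and from 6.26 to 8.38 TPM in the 6 WT livers, and the part of the gene that the deletion removes is not given in the sources used here, so this level does not check the label.

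Major urinary proteins are small barrel-shaped carriers of the lipocalin family that hepatocytes secrete into blood, from which the kidney passes them into urine. There they bind and slowly release volatile scents, and the mixture marks an individual mouse. In the mouse liver their transcription depends on the pulses of growth hormone and is helped by thyroid hormone and glucocorticoid, and males make more of them than females. The genes lie in a tandem array of recent copies. Mup20 encodes darcin, a protein of male urine that attracts females.

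The array is on chromosome 4 between positions 59956804 and 62150863 of GRCm38, and 26 annotated Mup pseudogenes lie on the same chromosome. Of the 10 members, Mup1, Mup7, Mup9, Mup16, Mup18, Mup19 and Mup22 are near copies of each other. The coding sequences of these 7 genes, called central here, were 98.71 to 100% identical in pairs, and those of Mup9 and Mup18 differed at 0 of 543 aligned bases. Mup20 was 90.61 to 91.53% identical to them, Mup3 86.06 to 87.06% and Mup21 86.06 to 86.99%, while Mup3 and Mup21 were 96.34% identical to each other. A stretch of 60 coding bases, from base 157 to base 216 of the Mup22 coding sequence, is printed for 8 members as an example. Mup7 and Mup16 are not printed. The stretch was taken as the one in which Mup20 and Mup22 differ most, so it does not show which of the other transcripts reads can tell apart. Capitals mark the bases that differ from Mup22.
Mup22: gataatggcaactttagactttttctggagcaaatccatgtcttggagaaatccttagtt
Mup19: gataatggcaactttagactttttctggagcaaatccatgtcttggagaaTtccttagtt
Mup18: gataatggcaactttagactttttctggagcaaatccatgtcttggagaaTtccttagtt
Mup9: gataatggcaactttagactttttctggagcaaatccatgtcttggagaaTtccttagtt
Mup1: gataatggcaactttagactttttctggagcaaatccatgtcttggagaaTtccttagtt
Mup3: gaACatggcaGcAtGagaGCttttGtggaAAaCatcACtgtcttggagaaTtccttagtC
Mup20: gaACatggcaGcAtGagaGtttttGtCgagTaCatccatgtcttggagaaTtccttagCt
Mup21: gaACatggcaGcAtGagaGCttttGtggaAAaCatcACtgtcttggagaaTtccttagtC
In this stretch Mup19, Mup18, Mup9 and Mup1 are 1 and the same sequence and differ from Mup22 at 1 base, whereas Mup20 differs from it at 12 bases. Mup3 and Mup21 differ from Mup22 at 15 bases each and are the same sequence here, although they differ elsewhere.

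These differences set how far a level belongs to a single gene. The annotated transcript of each member was read in windows of 150 bases, the length of the sequenced reads, and each window was looked for in the transcripts of every other gene. All windows of Mup3 and Mup21 were found in that gene alone, and so were 68.9% of those of Mup20, which shared the rest with the pseudogene Mup-ps19. Of the windows of Mup16 27.6% were its own, of Mup9 23.1%, of Mup7 22.5%, of Mup1 17.5%, of Mup18 13.7% and of Mup19 0.9%. Mup22 had no window of its own (0.0%). It shared 91.9% of its windows with Mup10 and 59.8% each with Mup18 and Mup19. How the counting divided reads that match several copies is not given in the sources used here, so levels of the 7 central genes are uncertain one by one, and their sum is given beside them.

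Promoter entries of RefSeq were found for 6 of the 10 members, Mup3, Mup7, Mup9, Mup18, Mup19 and Mup21. The 250 bases before the RefSeq start site of 4 of them are printed for GRCm38, on the minus strand. In Mup18, 12 bases next to the start site are left out. Mup9 and Mup18 are printed because they are identical over 543 aligned coding bases and differed between the WT groups in opposite directions. Mup3 and Mup21 are printed because all their windows were their own. Capitals mark a TATA-type sequence, TATANAA, and the sequence GGAATG, which appears here as its complement, CATTCC.
Mup9, chr4:60421953-60422202: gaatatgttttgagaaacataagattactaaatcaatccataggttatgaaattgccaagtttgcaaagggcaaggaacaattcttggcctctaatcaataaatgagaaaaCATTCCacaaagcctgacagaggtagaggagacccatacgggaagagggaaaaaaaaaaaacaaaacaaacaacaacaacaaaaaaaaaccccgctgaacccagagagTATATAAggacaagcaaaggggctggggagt
Mup18, chr4:61674107-61674344: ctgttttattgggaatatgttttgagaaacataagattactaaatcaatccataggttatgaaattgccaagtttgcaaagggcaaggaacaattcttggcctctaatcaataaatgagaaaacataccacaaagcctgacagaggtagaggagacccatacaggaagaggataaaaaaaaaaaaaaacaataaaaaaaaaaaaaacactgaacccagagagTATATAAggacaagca
Mup3, chr4:62087318-62087567: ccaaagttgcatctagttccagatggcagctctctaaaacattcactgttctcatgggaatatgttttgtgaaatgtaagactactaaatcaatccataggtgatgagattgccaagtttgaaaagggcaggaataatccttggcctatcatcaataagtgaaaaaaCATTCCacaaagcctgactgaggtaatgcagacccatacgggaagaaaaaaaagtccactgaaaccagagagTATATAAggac
Mup21, chr4:62150842-62151091: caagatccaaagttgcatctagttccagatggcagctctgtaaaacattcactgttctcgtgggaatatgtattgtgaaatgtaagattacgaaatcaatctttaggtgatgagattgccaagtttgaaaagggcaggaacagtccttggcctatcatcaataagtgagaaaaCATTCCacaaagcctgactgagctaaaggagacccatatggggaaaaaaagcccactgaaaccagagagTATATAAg
TATANAA occurred on either strand in 5 of the 6 member promoters, all but that of Mup7, and in 10.4% of 32851 mouse promoters of the same length. The RefSeq start sites did not lie at the same point of each copy. TATANAA began at base -31 in Mup9 and -8 in Mup21. The forkhead-type sequence TGTTTNC ended at base -1 in the Mup7 window and -138 in that of Mup9. The windows of Mup7 and Mup9 aligned over 113 bases, at 98.2% identity. The Mup7 window thus ends before the TATANAA of Mup9 and inside its GGAATG, so it cannot show whether Mup7 has these. GGAATG, the core bound by TEAD factors, the DNA-binding partners of YAP and TAZ, occurred in 4 of 6 (Mup3, Mup9, Mup19 and Mup21) and in 12.6% of all promoters. In Mup9, Mup19 and Mup21 it overlapped the forkhead-type sequence TGTTTNC, which was present in 5 of 6 members and in 17.8% of all promoters. The STAT5-type sequence TTCNNNGAA and the C/EBP-type sequence TTGCNNAA were found in 0 of 6, against 7.0 and 9.6% of all promoters, and the glucocorticoid receptor half-site TGTTCT in 2 of 6, those of Mup3 and Mup21, against 16.1%. The full windows of Mup9 and Mup18 were 95.8% identical over 238 aligned bases, and those of Mup3 and Mup21 93.4% over 244. Over aligned bases, identity of a pair ranged from 82.9% (Mup7 and Mup21) to 99.6% (Mup9 and Mup19). The windows are thus related copies, and the counts over 6 of them are not independent draws to set against the share of all promoters.

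In livers of WT (C57BL/6) mice the Mup pool was led by Mup22, at 36528, 27234 and 21655 TPM in LM75, LM192 and LM193, which made its mean the 3rd highest of all genes. Mup3 was next, at 5477, 5113 and 5687 TPM in the same order of mice. Mup19 was at 6823, 4654 and 2256 TPM, a range that enclosed that of Mup3, so the order of these 2 genes was not set beyond the spread between mice. Mup18 ranged from 1419 to 1963 TPM and overlapped Mup16, which ranged from 782 to 1869 TPM. Mup9 lay between 224 and 529 TPM. Mup7, between 57.3 and 207 TPM, overlapped Mup20, between 70.3 and 97.6 TPM. Mup1 ranged from 10.01 to 46.1 TPM and overlapped Mup21, from 12.7 to 14.8 TPM.

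The spread between these mice was not alike for all members. LM75 had the highest and LM193 the lowest level of Mup22, Mup19, Mup16, Mup9, Mup7, Mup1 and Mup21, whereas Mup3, Mup18 and Mup20 did not follow that order. The coefficient of variation was 5.36% for Mup3, whose windows were all its own, 26.4% for Mup22 and 49.9% for Mup19. Within each of the 4 groups the mice stood in the same order for Mup22 and Mup19, a pair that shares most of its windows.

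The summed TPM of the 10 members was 41992 ± 10378 (SD, n = 3) in WT (C57BL/6) and 1971 ± 670 in YAP1 KO livers. The single sums were 53012, 40558 and 32406 TPM in LM75, LM192 and LM193, and 1344, 2678 and 1892 TPM in LM74, LM189 and LM191. In the other pair the sum was 37717 ± 2396 in WT (mixed) and 220 ± 187 in YKTH livers. Its single values were 40300, 37287 and 35565 TPM in LM226, LM227 and LM230, and 433, 139 and 86.7 TPM in LM225, LM250 and LM251. The Mup genes thus took 3.24 to 5.30% of the summed TPM of all genes in the 6 WT livers, 0.134 to 0.268% in YAP1 KO and 0.00867 to 0.0433% in YKTH livers, with no overlap between either model and its control. As ratios of group means, the sum was 21.3-fold lower in YAP1 KO and 172-fold lower in YKTH. After scaling the libraries by a trimmed mean of log ratios these were log2 ratios of -4.76 and -7.79. The YKTH value rested in part on LM225, the liver with the highest sum, and was -8.67 without it. In bulk tissue, fewer cells of a type and less RNA per cell cannot be told apart.

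**Figure D1:**
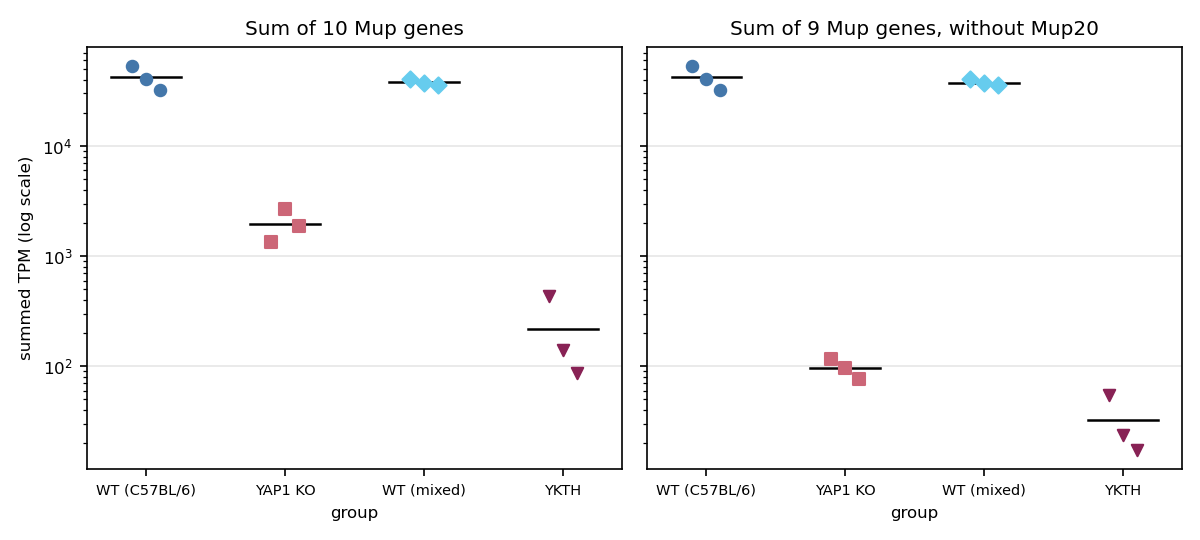
Summed TPM of the Mup genes in each liver, on a log axis, by group, with all 10 members (left) and without Mup20 (right). Points are mice and lines are means of 3. Both models lay below their controls, and leaving out Mup20 took the YAP1 KO mean from 1971 to 96.6 TPM and the YKTH mean from 220 to 32.3 TPM.

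Mup22, the most abundant member, was at 61.7, 33.3 and 22.4 TPM in the YAP1 KO livers LM74, LM189 and LM191, a mean 727-fold below that of WT (C57BL/6). In YKTH it was at 30.2, 9.29 and 6.66 TPM in LM225, LM250 and LM251, against 26806, 25367 and 22942 TPM in LM226, LM227 and LM230, a 1629-fold lower mean. No model liver came within the range of any WT liver. On the log2(TPM + 1) scale of the fit, the differences were -9.91 ± 0.32 (SE) and -11.17 ± 0.41. Mup3, which shared no window of 150 bases with another annotated gene, was at 37.1, 55.0 and 47.7 TPM in YAP1 KO, 116-fold below its control. In YKTH it was at 13.7, 8.05 and 5.25 TPM, against 3861, 3971 and 5538 TPM in WT (mixed), 495-fold lower. The difference was thus present in a gene whose annotated windows were all its own as well as in the summed copies. Reads with mismatches and FVB alleles were not examined.

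The other central genes were close to the lower limit of the tables in both models. Mup19 was at 8.96, 2.25 and 1.40 TPM in YAP1 KO and at 1.24, 0.449 and 0.239 TPM in YKTH livers. Mup18 was listed at 0 in LM74 and LM225, and was at 0.692 and 1.26 TPM in the other YAP1 KO livers and at 0.257 and 0.548 TPM in the other YKTH livers. Mup16 was at 1.47, 2.66 and 1.33 TPM in YAP1 KO, at 2.16 and 0.575 TPM in LM225 and LM250, and listed at 0 in LM251. For each of these genes, each model liver was below every liver of its control group. Mup9 was at 1.12, 0.269 and 1.04 TPM in YAP1 KO and at 3.73, 2.79 and 0.372 TPM in YKTH livers. Mup1 was at 0.161, 0 and 0.269 TPM in YAP1 KO and at 0.915, 1.73 and 2.73 TPM in YKTH livers. Mup7 did not exceed 0.493 TPM in any of the 6 model livers and was listed at 0 in LM189 and LM250. The TPM tables keep no read depth, so the precision of these low values is unknown. On the log2(TPM + 1) scale the differences of these 6 genes ran from -4.34 to -10.27 in YAP1 KO and from -7.08 to -10.71 in YKTH.

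Mup21, the lowest member in WT (C57BL/6) by mean, was lower in the models by the smallest ratio. It was at 14.8, 13.6 and 12.7 TPM in LM75, LM192 and LM193 and at 5.26, 2.31 and 1.73 TPM in LM74, LM189 and LM191. In the mixed background it was at 5.58, 5.69 and 11.2 TPM in WT and at 3.31, 0.882 and 1.13 TPM in YKTH livers. The groups did not overlap in either pair, and the ratios of means were 4.43-fold and 4.22-fold lower. Mup3, identical to Mup21 at 96.34% of 546 aligned coding bases, had a mean of 5426 TPM in WT (C57BL/6) livers against 13.7 TPM for Mup21.

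Mup20 (darcin) was the member with higher means in both models. It was at 97.4, 70.3 and 97.6 TPM in the control livers LM75, LM192 and LM193, and in YAP1 KO at 1228, 2581 and 1815 TPM in LM74, LM189 and LM191. Every YAP1 KO liver was above every control, with a mean 21.2-fold higher and a log2 difference of 3.98 ± 0.30 (SE). In WT (mixed) it was at 55.6, 44.3 and 86.0 TPM in LM226, LM227 and LM230, and in YKTH at 378, 115 and 69.3 TPM in LM225, LM250 and LM251. Here the groups overlapped, since LM251 was below LM230. The YKTH mean was 3.03-fold higher with a log2 difference of 0.94 ± 0.52, and this was 0.29 without LM225. Whether the change of Mup20 differed between the models was not tested. The pseudogene Mup-ps19 shares the part of the Mup20 transcript that is not its own, and its share of these reads was not tested.

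**Figure D2:**
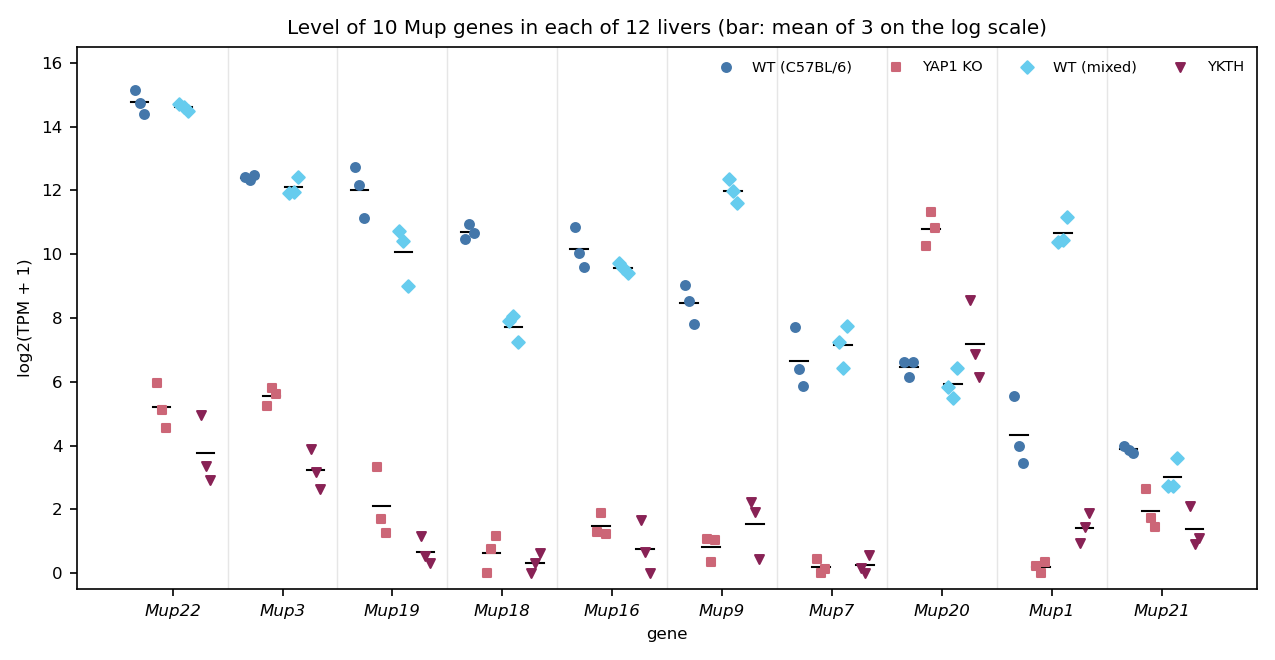
Level of each of the 10 members as log2(TPM + 1) in every liver, by group, with genes ordered by their mean in WT (C57BL/6) livers and lines at the mean of 3. Mup20 is the gene for which the YAP1 KO livers lie above the WT livers, and Mup9, Mup1 and Mup18 are the genes whose WT groups stand farthest apart.

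Counted over the members, 9 of 10 were lower in every YAP1 KO liver than in any WT (C57BL/6) liver, and 1 was higher in every one. Among all 11704 genes tested, 9.29% were lower and 47.5% higher without overlap. Overlap was judged on unscaled TPM, for members and all genes alike. In YKTH 9 of 10 were lower without overlap and 0 higher, against 10% and 44.4% of 11741 genes. The median log2 difference of the 10 members was -7.55 in YAP1 KO and -9.11 in YKTH, beside -0.038 and -0.043 over all genes tested. Without the scaling of libraries, the medians of all genes were 0.28 and 0.24. By limma, 36.7% of all genes in YAP1 KO and 38.4% in YKTH passed an adjusted p of 0.05. Of these calls 51.3 and 49.8% were higher in the model, and 84.0 and 82.2% without scaling.

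With Mup20 higher and the rest lower, the make-up of the pool differed between models and controls. Mup22 made up 67.6 ± 1.12% (SD, n = 3) of the member sum in WT (C57BL/6) and 66.4 ± 1.77% in WT (mixed), but 2.34 ± 1.95% in YAP1 KO and 7.10 ± 0.521% in YKTH livers. Mup20 made up 0.219 ± 0.0711% and 0.166 ± 0.0662% in the WT groups, against 94.6 ± 2.79% in YAP1 KO and 83.3 ± 3.69% in YKTH. Mup3 made up 13.5 ± 3.69% and 11.9 ± 3.20% in WT, and 2.45 ± 0.360% and 4.99 ± 1.59% in the models. In the 3 YKTH livers Mup20 was thus the main Mup transcript although its level overlapped that of the controls. Summed without Mup20, a sum chosen after seeing the data, the other 9 members were 434-fold lower in YAP1 KO and 1167-fold lower in YKTH, with log2 ratios of scaled sums of -9.13 and -10.54.

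**Figure D3:**
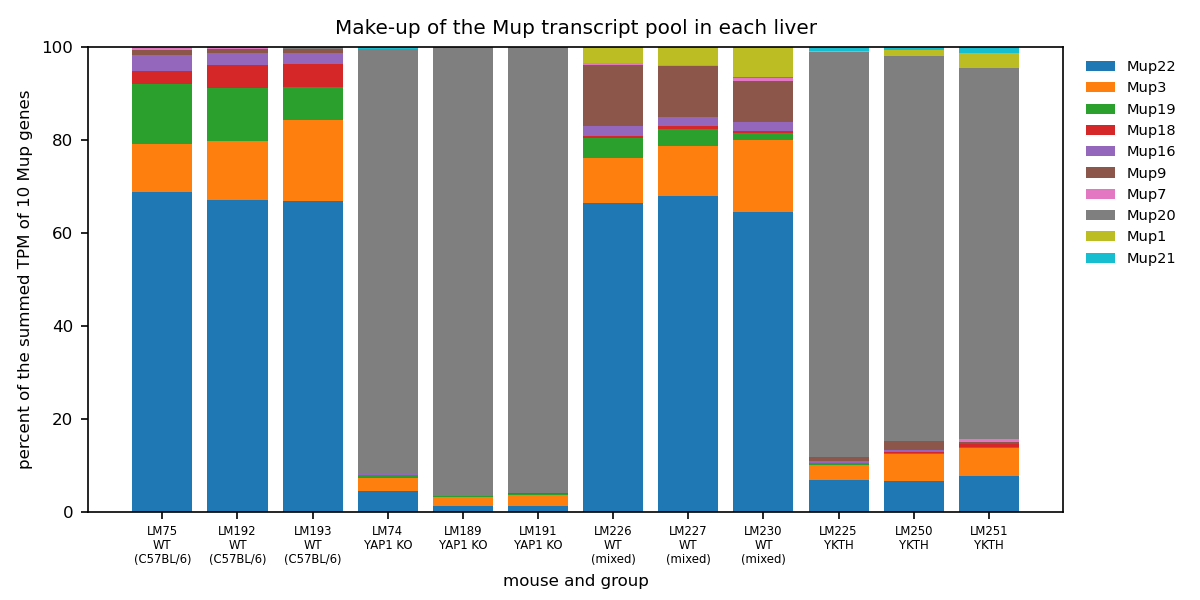
Share of each member in the summed TPM of the 10 members, in percent, as stacked bars with a bar for each mouse. Mup22 takes 64.5 to 68.9% of the sum in the 6 WT livers, and Mup20 takes 79.9 to 96.4% in the 6 model livers.

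The tables hold 12 more rows of the family, Mup2, Mup4, Mup5, Mup6, Mup8, Mup10, Mup11, Mup12, Mup13, Mup14, Mup15 and Mup17. Their sum was 2910 ± 2576 TPM in WT (C57BL/6) and 6.23 ± 2.49 TPM in YAP1 KO livers, and 2674 ± 501 TPM in WT (mixed) and 4.50 ± 0.954 TPM in YKTH livers. It varied widely in WT (C57BL/6), from 750 TPM in LM193 to 5762 TPM in LM75. Mup15 (1175 TPM in WT (C57BL/6) and 1.53 TPM in YAP1 KO by mean) and Mup11 (1143 TPM in WT (mixed) and 0.874 TPM in YKTH) were the most abundant of them. In both models 10 of the 12 were lower in every liver than in any control. The exceptions were Mup4, listed at 0 in all 12 livers, and Mup6, which did not pass the filter. None of the 12 had a higher mean in a model than in its control. Taken over all 22 Mup rows, the sums were 22.7-fold and 180-fold lower in YAP1 KO and YKTH.

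The WT groups differ in background, and their comparison uses none of the model livers. The same WT livers entered the comparisons by which the family was chosen, so the tests of members below are not independent of that choice. The member sum was 1.11-fold lower in WT (mixed) than in WT (C57BL/6), a difference smaller than the spread between mice. Its make-up was not the same. Mup1 was at 46.1, 14.8 and 10.01 TPM in LM75, LM192 and LM193, and at 1349, 1406 and 2287 TPM in LM226, LM227 and LM230, 71.1-fold higher by mean. Mup9 was at 529, 368 and 224 TPM against 5276, 4015 and 3135 TPM, 11.1-fold higher. Mup18 was lower, from 1419, 1963 and 1624 TPM to 237, 266 and 150 TPM, 7.66-fold lower. For none of the 3 genes did the WT groups overlap.

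These 3 of 10 members passed the limma test across 11126 genes, in which 24 genes, 0.216% of those tested, were called, 0.171% as higher and 0.0449% as lower in WT (mixed). The log2 difference was 6.28 ± 0.50 (SE) for Mup1 (6.91 without LM75), with an adjusted p of 0.00126, 3.46 ± 0.30 for Mup9, with an adjusted p of 0.00236, and -3.02 ± 0.20 for Mup18, with an adjusted p of 0.000551. The number of genes called was 14, 12, 10, 9 and 13 without LM192, LM193, LM226, LM227 and LM230 in turn, and 15 without the filter on low levels. Over the 11 other settings tried, the adjusted p ranged from 1.44e-05 to 0.0254 for Mup1, from 0.000921 to 0.0383 for Mup9 and from 0.000119 to 0.0108 for Mup18. Mup19 was 3.82-fold lower and Mup21 1.83-fold lower in WT (mixed) without overlap, but their adjusted p values were 0.422 and 0.535. Of all genes tested, 8.42% were higher and 3.29% lower without overlap of unscaled TPM, beside 2 and 3 of the 10 members. Of the 12 other Mup rows 10 were tested, and 0 passed the threshold. Mup10 was 3.94-fold higher without overlap (limma adjusted p = 0.332), and Mup5 was 1.83-fold lower without overlap (adjusted p = 0.681). Mup22, Mup3, Mup16, Mup7 and Mup20 overlapped between the WT groups. Mup9 and Mup18 are identical over their 543 aligned coding bases, and the reads were aligned to the C57BL/6 genome, so a change of the gene that is active, a change of its sequence and a change in how reads were divided cannot be told apart here. The sum of the 7 central members differed 1.10-fold. Background and the set of animals also cannot be told apart.

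**Figure D4:**
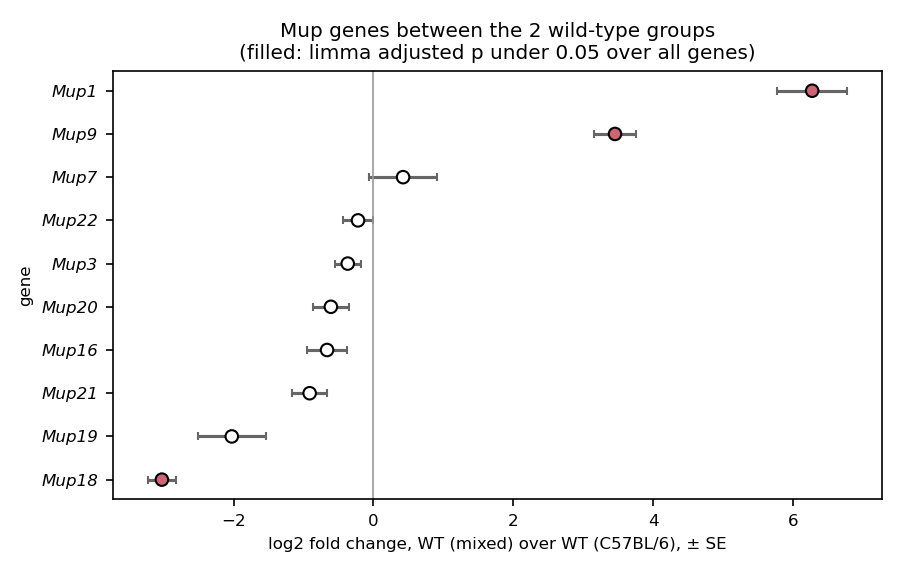
Log2 fold change of each member between the WT groups, WT (mixed) over WT (C57BL/6), with bars of 1 SE and filled points for genes with a limma adjusted p under 0.05 over all genes. Mup1 and Mup9 lie to the right, Mup18 to the left, and Mup22, the main transcript, at -0.22.

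The model livers of each background were also compared by order. By mean, Mup1 was below Mup18 in YAP1 KO (0.143 against 0.651 TPM) and above it in YKTH (1.79 against 0.268 TPM), the same order as in the WT group of each. In the YAP1 KO liver LM74 the order was reversed, with Mup1 at 0.161 TPM and Mup18 listed at 0. These levels are all near 1 TPM, and the relation was not tested.

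Markers of the liver's cell types were read beside these results. The summed level of 8 hepatocyte markers, among them Alb, Ttr and Hnf4a, ranged from 89100 to 113000 TPM in the 6 WT livers, from 75200 to 84400 TPM in YAP1 KO and from 72000 to 88000 TPM in YKTH. By limma, 4 of 8 were lower in YAP1 KO and 4 of 8 in YKTH. The largest difference was that of Cyp2e1, at -2.83 on the log2 scale in YAP1 KO. The 8 macrophage markers were all higher in both models, with sums of 188 to 399 TPM in WT, 675 to 1020 TPM in YAP1 KO and 799 to 880 TPM in YKTH. Of the 8 stellate cell and fibroblast markers, 4 were higher in each model, with sums of 119 to 158 TPM in WT, 339 to 441 TPM in YAP1 KO and 296 to 378 TPM in YKTH, while Lrat, a stellate cell marker, was lower in YAP1 KO, with a log2 difference of -0.84 ± 0.19. The cholangiocyte list summed to 36.7 to 66.9 TPM in WT, 336 to 759 TPM in YAP1 KO and 110 to 231 TPM in YKTH, and Spp1 made up most of it, with 2 of 5 tested genes higher in each model, while Krt19, Krt7 and Cftr stayed at or below 3.02 TPM in every group mean. Epcam went the other way in YKTH, with a log2 difference of -1.48 ± 0.21. The 2 higher genes were Spp1 and Sox9. The paper reports no intrahepatic bile ducts in adult livers of either model, and the cells behind the cholangiocyte sum were not tested. The endothelial list summed to 101 to 141 TPM in WT, 94.9 to 141 TPM in YAP1 KO and 116 to 154 TPM in YKTH, with 3 and 4 of 8 genes lower, and Cdh5 was higher in YKTH, with a log2 difference of 0.65 ± 0.18. The list of other leukocytes summed to 10.1 to 19.6 TPM in WT, 55.1 to 58.0 TPM in YAP1 KO and 21.5 to 56.1 TPM in YKTH, with 3 of 4 and 2 of 5 tested genes higher. The sums are unscaled TPM, and the counts are of scaled values. On scaled values, 18.8% of all genes tested were higher and 17.9% lower in YAP1 KO, and 19.1% and 19.3% in YKTH. Without scaling, 2 endothelial genes were higher and 2 lower in YAP1 KO, and 1 higher and 2 lower in YKTH. For stellate cells and fibroblasts 6 were higher in YAP1 KO and 4 in YKTH, with 0 lower. For cholangiocytes 3 were higher in each and 1 lower in YKTH. For other leukocytes 3 and for macrophages 8 were higher in each, and for hepatocytes 3 were lower in each. The part of these marker shifts in the Mup levels was not tested.

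Genes of the growth hormone pathway, which feeds Mup transcription, shifted at the receptor and at secreted targets. Ghr, the receptor, was measured at 187, 193 and 176 TPM in LM75, LM192 and LM193, and at 87.5, 109 and 92.4 TPM in LM74, LM189 and LM191. In the mixed background it was at 218, 207 and 206 TPM in WT and at 108, 89.3 and 83.6 TPM in YKTH livers. It fell, with a log2 difference of -1.30 ± 0.13 (SE) in YAP1 KO (limma adjusted p = 0.000249) and -1.49 ± 0.10 in YKTH (adjusted p = 3.1e-05). The downstream kinase Jak2 and the transcription factors Stat5a and Stat5b did not pass the test in either model, with log2 differences between 0.032 and 0.395.

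The secreted targets fell in both models. The log2 difference of Igf1 was -1.10 ± 0.09 in YAP1 KO and -0.97 ± 0.14 in YKTH. It was -2.45 ± 0.19 and -2.21 ± 0.11 for Igfals, whose product stabilises IGF1 in blood, and -1.83 ± 0.31 and -1.64 ± 0.23 for Igfbp3, which encodes its binding partner. Cux2, a regulator normally higher in female liver, also fell, with differences of -1.77 ± 0.43 and -1.58 ± 0.53, although its levels overlapped between groups. Bcl6, a repressor that opposes STAT5, differed by -0.20 ± 0.21 in YAP1 KO (adjusted p = 0.501) and fell by 1.21 ± 0.29 in YKTH (adjusted p = 0.0113). Of the feedback inhibitors, Socs3 rose by 2.60 ± 0.20 and 2.15 ± 0.33, and Cish did not pass the test in either. Socs2 differed by -0.19 ± 0.37 in YAP1 KO and rose by 0.61 ± 0.11 in YKTH. Mean Socs2 was 12.7 and 12.6 TPM in YAP1 KO and YKTH, but 12.1 TPM in WT (C57BL/6) and 6.26 TPM in WT (mixed). Mean Bcl6 was 6.59 and 6.98 TPM in the models, but 6.21 TPM in WT (C57BL/6) and 13.2 TPM in WT (mixed). For Socs2 and Bcl6 the WT means thus stood farther apart than the model means, which was not tested. In all, 5 of the 12 genes fell and 1 rose in YAP1 KO, where 17.9% of all genes fell and 18.8% rose, and 6 fell and 2 rose in YKTH, where 19.3% fell and 19.1% rose. The median of the list was -0.19 and -0.43. Without scaling 3 rose and 5 fell in YAP1 KO, and 4 rose and 5 fell in YKTH.

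**Figure D5:**
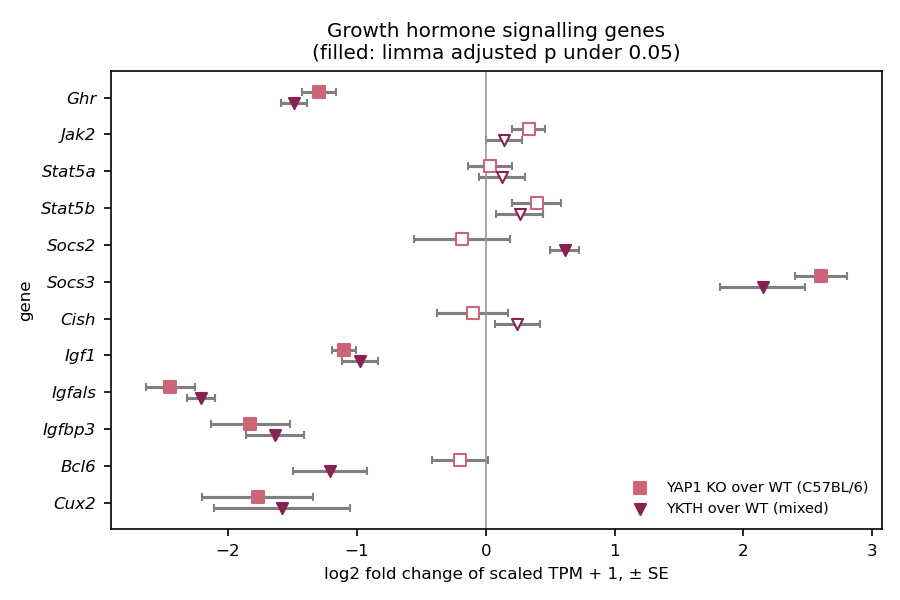
Log2 fold change of the 12 growth hormone signalling genes in each model over its WT group, with bars of 1 SE and filled symbols for a limma adjusted p under 0.05. Ghr, Igf1, Igfals, Igfbp3 and Cux2 are lower and Socs3 is higher in both models.

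Of 17 transcription factors and hormone receptors of hepatocytes, 16 were tested (Rslcan18 was not), and 7 fell and 1 rose in YAP1 KO. Among those that fell were Onecut1, with a log2 difference of -1.71 ± 0.19, and Esr1, an estrogen receptor, with -1.30 ± 0.19. In YKTH Esr1 fell with a difference of -0.96 ± 0.15, while Onecut1 did not pass the test, and 6 of 16 fell and 1 rose. Foxa3, whose promoter drives the Cre, was the gene that rose, by 0.69 ± 0.20 in YAP1 KO and 0.64 ± 0.19 in YKTH. Hnf4a, a main activator of hepatocyte genes, differed by -0.07 ± 0.14 and -0.12 ± 0.14. Zhx2, a regulator of Mup genes, differed by 0.02 ± 0.16 and -0.26 ± 0.10, and Rsl1, named for its control of sex-limited genes that include Mups, by 0.14 ± 0.18 and 0.35 ± 0.14, with no adjusted p under 0.0663 among these 4 values. Without scaling, 5 fell and 1 rose in YAP1 KO, and 3 fell and 3 rose in YKTH, and in YKTH the number past the threshold was 4 in place of 7 without LM226, LM227 or LM251. The median of the list was -0.33 and -0.36. Of all genes tested with scaling, 17.9% fell and 18.8% rose in YAP1 KO, and 19.3% fell and 19.1% rose in YKTH.

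Genes with sex-biased levels were read because Mups are male-biased. Of 17 male-biased liver genes 12 could be tested in YAP1 KO, and 8 fell and 3 rose. Those that fell most were Slco1a1, an organic anion transporter, with a log2 difference of -5.59 ± 0.33, Serpina1e with -4.99 ± 0.85 and Hsd3b5 with -3.81 ± 0.39. Those that rose were Cyp2d9 by 1.72 ± 0.34, Gstp1 by 1.57 ± 0.11 and Cyp4a12b by 1.44 ± 0.26. In YKTH 10 could be tested, without Hsd3b5 and Cyp4a12b, and 8 fell and 2 rose. The median of the tested genes was -2.12 and -2.02. Cyp4a12a, C4a, Ugt2b38, Cspg5 and Moxd1 were not tested in either. Of 20 female-biased genes, 17 fell and 2 rose in YAP1 KO, and 15 fell and 2 rose in YKTH, with medians of -4.35 and -3.32. Cyp3a41a, a female-specific cytochrome P450, was at 1839, 2516 and 2234 TPM in LM75, LM192 and LM193. It was at 1.23, 3.97 and 2.53 TPM in LM74, LM189 and LM191, and fell by 9.62 ± 0.27. Cyp3a44 fell by 7.98 ± 0.14 and Sult3a1, a sulfotransferase, fell by 7.92 ± 0.16 in YAP1 KO, while Prom1 and Ntrk2 rose there by 2.39 ± 0.20 and 1.86 ± 0.28. In YKTH the genes that rose were Prom1, by 1.77 ± 0.38, and Atp6v0d2, by 0.99 ± 0.29. There Ntrk2 differed by -0.36 ± 0.20 (limma adjusted p = 0.181). Mean Ntrk2 was 0.877 TPM in WT (C57BL/6), 4.82 TPM in WT (mixed), 6.95 TPM in YAP1 KO and 4.27 TPM in YKTH. Genes of both sexes' patterns thus fell beside the Mup genes in these female livers. Across all genes tested, 17.9% fell and 18.8% rose in YAP1 KO, and 19.3% fell and 19.1% rose in YKTH. Serpina1 and Cyp3a genes are near copies like the Mups, and how their reads were divided is uncertain too.

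Other lipocalins went in both directions. Of 9 tested, 5 rose and 3 fell in YAP1 KO, and 2 rose and 3 fell in YKTH, with medians of 0.54 and -0.50. Without scaling 6 rose and 3 fell in YAP1 KO, and 4 rose and 2 fell in YKTH. The shares of all genes tested with scaling were 18.8% higher and 17.9% lower in YAP1 KO, and 19.1% and 19.3% in YKTH. Lcn2, an iron-siderophore binding protein induced in inflammation, was at 15.6, 42.6 and 15.4 TPM in LM75, LM192 and LM193, and at 1761, 906 and 1323 TPM in LM74, LM189 and LM191. It rose by 5.46 ± 0.37 in YAP1 KO and by 6.17 ± 0.26 in YKTH. Orm2, an acute-phase protein, rose by 4.18 ± 0.42 and 3.64 ± 0.37. Ptgds rose by 1.51 ± 0.35 in YAP1 KO and did not pass the test in YKTH. The genes that fell were C8g, a complement component, with log2 differences of -1.53 ± 0.15 and -1.61 ± 0.10, Apom with -1.16 ± 0.19 and -0.88 ± 0.14, and Rbp4, the retinol carrier of blood, with -0.67 ± 0.13 and -0.65 ± 0.16. Apod and Obp2a were not tested, and Lcn13 was not found by that name.

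Transcripts of abundant secreted proteins of hepatocytes were read as well, as a share of each library, and no protein was measured. Their 23 genes summed to between 197000 and 231000 TPM in WT livers, 210000 and 228000 TPM in YAP1 KO and 216000 and 235000 TPM in YKTH livers, and these ranges overlapped. Of the 23, 11 fell and 3 rose in YAP1 KO, and 10 fell and 3 rose in YKTH, with medians of -0.35 and -0.29. The largest declines in YAP1 KO were -2.08 ± 0.23 for Serpina3k, -1.91 ± 0.15 for Serpina1c and -1.67 ± 0.15 for Serpina1d. Haptoglobin (Hp) rose by 1.91 ± 0.18, hemopexin (Hpx) by 1.35 ± 0.14 and transferrin (Trf) by 1.18 ± 0.15. Alb, the gene of albumin, fell by 0.74 ± 0.18 in YAP1 KO and differed by -0.62 ± 0.25 in YKTH (adjusted p = 0.0838). None of the 23 differed by as much as Mup22 or Mup3. The Mup family was chosen by these same comparisons, so no conclusion is drawn from that order. Without scaling, 9 fell and 8 rose in YAP1 KO, and 6 fell and 8 rose in YKTH. The number past the threshold in YKTH was 8 without LM230. With scaling, 17.9% of all genes tested fell and 18.8% rose in YAP1 KO, and 19.3% fell and 19.1% rose in YKTH.

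Genes whose pattern over the 12 livers was most like the member sum were found among 6283 genes with a mean of at least 10 TPM, by Pearson's r of log2 levels. They included Csrp3 (r = 0.986), Cyp1a2 (0.975), Cyp2j5 (0.975), Inmt (0.973), Pdp2 (0.972), Dhrs7 (0.969) and Ces3a (0.966). All 7 were lower in both models by mean, and the livers fall into high WT and low model groups, so r mostly follows that split. Inmt, a methyltransferase, went from 1243 to 254 TPM in YAP1 KO and from 1290 to 117 TPM in YKTH, and Ces3a, a carboxylesterase, from 952 to 193 TPM and from 855 to 147 TPM. Cyp1a2, a cytochrome P450 of the cells around the central vein, went from 684 to 325 TPM and from 766 to 230.5 TPM. By deviations from group means, which leave the groups out, the closest were Xylt2 (0.947), Gpat4 (0.929), Ces3a (0.928), Igtp (0.922) and Erap1 (0.912), with 3 livers in each group. Ces3a alone was on both lists. These are the highest of 6283 values of r, each from 12 livers with the group means removed. Values this high can come from the ranking alone, and they were not tested.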

How the data were processed

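RNA of whole liver from 12 female mice was sequenced in 150-base paired ends, and the authors, who used CLC Genomics Workbench with GRCm38.p6 for alignment, deposited TPM per gene in 2 tables, a table for each model with its littermates. Each library's TPM sums to 1000000 over 41743 genes, so the tables keep no read count, the depth behind each value is unknown here, and a fall of abundant genes raises the TPM of the rest. Columns of the authors' own edgeR comparisons were not used. All TPM columns were mapped to samples by their labels. Strandedness of the libraries and the treatment of reads matching several genes are not given in the sources used here.

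TPM were divided by a trimmed mean of log ratios (at each end, 30% were trimmed by log ratio and 5% by mean level), taken as log2(value + 1) and fitted per comparison with limma 3.58.1 (R 4.3.3; trended empirical Bayes, Benjamini-Hochberg adjustment, threshold 0.05) over genes with at least 1 TPM in 3 libraries. Fold changes on that scale understate changes of low genes. Levels and ratios of means are unscaled TPM. Model against WT was tested for all genes but is given for members without a test, since the family was chosen by these comparisons. The members and lists were chosen with earlier results of these data known, so the counts and adjusted p values of the lists, taken from the fit over all genes, are not independent evidence of a direction. TPM are set within each library, so the WT groups were compared across the tables. The fit was tested on simulated data with independent noise and few changed genes. That test does not cover comparisons in which as many genes differ as between model and WT. Labels do not say that mice of a group came from separate litters, and p-values measure the spread between 3 mice.

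Sequence comparisons used GENCODE M21 transcripts, whose start and end were those of the tables for 22 of 22 Mup rows, and RefSeq promoters of GRCm38.p6 (250 bases before the start site). For each gene the transcript with the complete coding sequence closest in length to that of Mup22 was taken. Named genes were all 10 members, the other 12 Mup rows, Yap1 and Wwtr1, all growth hormone signalling genes, the 3 largest rises and falls past the threshold in YAP1 KO in the other lists, and the 8 and 5 genes most like the member sum over livers and in deviations from group means. Of these, 2 genes are not reported here. Zhx2, Rsl1, Hnf4a, Alb and Atp6v0d2, and marker genes, were named beyond this rule. Alternatives were a pseudocount of 0.1, no scaling, a minimum of 5 TPM or no filter, removal of Mup rows, a fit of all 12 libraries, the sum of all 22 Mup rows or without Mup20, and leaving out each mouse.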

Additional observations from a re-analysis of the deposited data

How the results depend on the processing

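With 3 mice a group, leaving out a mouse gave 3110 to 3965 genes past the threshold in YAP1 KO (4295 with all), 2833 to 4069 in YKTH (4507 with all, 3003 without LM250 and 2833 without LM251) and 9 to 28 between the WT groups (24 with all). Without a filter on low values the WT groups gave 15. Log2 ratios of the summed TPM ranged from -5.08 to -4.51 in YAP1 KO, from -8.67 (without LM225) to -7.42 in YKTH and from -0.38 to 0.01 between the WT groups when a mouse was left out. Leaving out Mup20, an alternative added after seeing the data, gave -9.13 in YAP1 KO and -10.54 in YKTH. The other settings kept counts within 1.5 times and sums within the spread between mice. For single members, the pseudocount of 0.1 gave most of the larger moves, since low values then count for more, and Mup1 in WT rose to 6.91 without LM75. Between the WT groups, Mup1, Mup9 and Mup18 passed the threshold in 11 of 11 other settings, with the highest adjusted p without LM226. Mup21 passed it without LM230. No paired analysis was possible because the labels give each mouse a number of its own. TPM keep no depth, so no counting error is given for values near 0.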

Other observations

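Mup3 and Mup20, which have all or most of their windows to themselves, as Mup21 also has, differed from WT in opposite directions in YAP1 KO livers, and the mice of a group stood in the same order for both in 3 of 4 groups. In YAP1 KO livers LM189 was highest and LM74 lowest for both, and in YKTH livers LM225 was highest and LM251 lowest for both. In WT (mixed) livers LM230 was highest for both. This pair was picked after its values were seen, and the order was not tested.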
